A study of Homo sapiens with 6 samples.

Results

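The activin and inhibin family was described by 10 genes: the subunits *INHA*, *INHBA*, *INHBB*, *INHBC* and *INHBE*, the antagonists *FST* and *FSTL3*, and the receptors *ACVR1B*, *ACVR2A* and *ACVR2B*. They are 10 of 39739 gene rows, matched by symbol. The set was chosen by earlier results of the comparison reported here, so its differences between the groups are given as description, with no p-value. Transcriptomes were sequenced from 6 libraries, 3 named HGC27-FN1 3′-UTR and 3 named HGC27-control. The HGC27 line is an established line of human gastric cancer, here grown in RPMI medium with fetal bovine serum. In the first group the 3′-UTR of fibronectin 1 mRNA was stably overexpressed from a lentivirus, and infected cells were kept by puromycin selection. The labels give no further detail of the control cells, and whether the stable line was 1 clone or a pool is not given in the sources used here. Nothing in the labels says that libraries of a group came from separate cultures, so p-values measure only the spread between these libraries.

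Activins are dimers of β subunits, and inhibins pair a β subunit with the α subunit encoded by *INHA*. Activins made of the *INHBA* and *INHBB* subunits bind the type II receptors ACVR2A and ACVR2B. These receptors then recruit and phosphorylate the type I receptor ACVR1B, and the signal passes to SMAD2 and SMAD3. Follistatin (*FST*) and FSTL3 bind these activins and keep them from their receptors. *INHBC* and *INHBE* are known as liver-expressed subunits, and *INHBE* is also known as a gene that the stress-response factor ATF4 switches on.

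The study's question is what the *FN1* 3′-UTR does in gastric cancer cells, in part by binding miRNAs. The mature sequences of 4 miRNAs are shown because the study tested each of them against the *FN1* 3′-UTR, and their seed matches were searched for in the 3′-UTRs of the members. Sequences are from RefSeq (GRCh38.p14), all 4 names matched, and capitals mark the seed, bases 2 to 8.
let-7i-5p: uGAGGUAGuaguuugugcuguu
miR-423-5p: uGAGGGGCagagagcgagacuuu
miR-629-5p: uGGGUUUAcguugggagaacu
miR-296-3p: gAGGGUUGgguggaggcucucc

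The motifs searched were the reverse complements of these seeds, CTACCTC for let-7i-5p, GCCCCTC for miR-423-5p, TAAACCC for miR-629-5p and CAACCCT for miR-296-3p, on the transcript strand only. None of the 4 motifs was in the 3′-UTR of *INHA*, *INHBB*, *INHBC*, *INHBE*, *FST* or *FSTL3*. Matches lay in *ACVR1B*, *INHBA*, *ACVR2A* and *ACVR2B*. They are printed with capitals on the motif, from the GENCODE 29 transcripts on GRCh38.
ACVR1B, let-7i-5p, chr12:51994176-51994201, + strand: acgatggaggcCTACCTCtcgtttct
ACVR1B, miR-423-5p, chr12:51994540-51994565, + strand: ccagaagtgcaGCCCCTCtcacaggc
ACVR1B, miR-423-5p, chr12:51994886-51994911, + strand: cctcccccagaGCCCCTCatgccaca
INHBA, miR-629-5p, chr7:41685812-41685837, - strand: tgtgtttaaatTAAACCCtgtatcac
ACVR2A, miR-629-5p, chr2:147929436-147929461, + strand: gataaaattttTAAACCCagttattc
ACVR2B, miR-629-5p, chr3:38485949-38485974, + strand: tacctgaacacTAAACCCcagcctct

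The let-7i-5p motif was in 8.7% of the 3′-UTRs of 19186 genes, and in 14.9% of those with a length near that of *ACVR1B* (the shorter at least 0.8 times the longer). The miR-423-5p motif was in 13.4% of all 3′-UTRs, and in 20.8% of those near *ACVR1B* in length. The miR-629-5p motif was in 6.4% of all 3′-UTRs, and in 17.0%, 14.3% and 32.0% of those near *INHBA*, *ACVR2A* and *ACVR2B* in length. The miR-296-3p motif was in 7.8% and in no member. A match is a description of letters only and does not show binding.

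Depth, recovered from the RPKM, was 16357085, 24423047 and 29202046 assigned reads in the FN1 3′-UTR group and 22332816, 30817381 and 37037532 in the control group. The *FN1* row rose from 0.516 ± 0.037 RPKM in the control group to 0.780 ± 0.037 RPKM in the FN1 3′-UTR group (SD, n = 3 each), with a log2 fold change of 0.52 and an adjusted p of 0.0292 (limma). That call was lost on leaving out any 1 library. Of the cell type markers, all 5 epithelial genes (*EPCAM*, *KRT8*, *KRT18*, *KRT19* and *CDH1*) rose, with a summed level of 2.59 to 2.99 RPKM in the control libraries and 18.2 to 27.0 RPKM in the FN1 3′-UTR libraries. Of 4 fibroblast genes *LUM* and *COL1A1* rose, while *DCN* (log2 fold change 0.29) and *PDGFRA* (-0.21) were not called. Their summed level, mostly *COL1A1*, was 37.0 to 46.0 RPKM in the control libraries and 59.6 to 60.9 RPKM in the FN1 3′-UTR libraries. Of the 3 gastric markers with a row (*TFF1*, *MUC5AC* and *PGC*), the 4 hepatocyte markers and the 3 endothelial markers, none passed the filter on low values. Of the 2 leukocyte markers with a row, *PTPRC* did not pass it and *CD14* passed it and was not called. The part of these marker differences in the results below was not tested.

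Testing required 3 or more libraries at 0.1 RPKM or above, which 8 of the 10 members and 23299 gene rows reached. Log2 fold changes are HGC27-FN1 3′-UTR minus HGC27-control on log2(RPKM + 0.1). Genes were called at a Benjamini-Hochberg adjusted p under 0.05 from limma over all tested genes. Of all tested genes, 1310 were called higher (5.62%) and 1715 lower (7.36%). Scaling by median ratios turned that split to 1696 higher and 1331 lower, and moved the median log2 fold change of all tested genes from -0.04 to -0.003. Among the members, 3 were called lower, *INHBB*, *INHBC* and *INHBE*, and 1 higher, *FSTL3*, which the choice of the set does not allow to be read as evidence. The same holds for every call, or lack of a call, given for a single member below. Among the 8 tested members, the RPKM of the groups did not overlap, with the FN1 3′-UTR group lower, for 5, beside 21.7% of all tested genes, and with it higher for 1, beside 14.3%.

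The plot of each member's RPKM by library sets *FSTL3* highest and *INHBA* lowest in both groups.

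**Figure D1:**
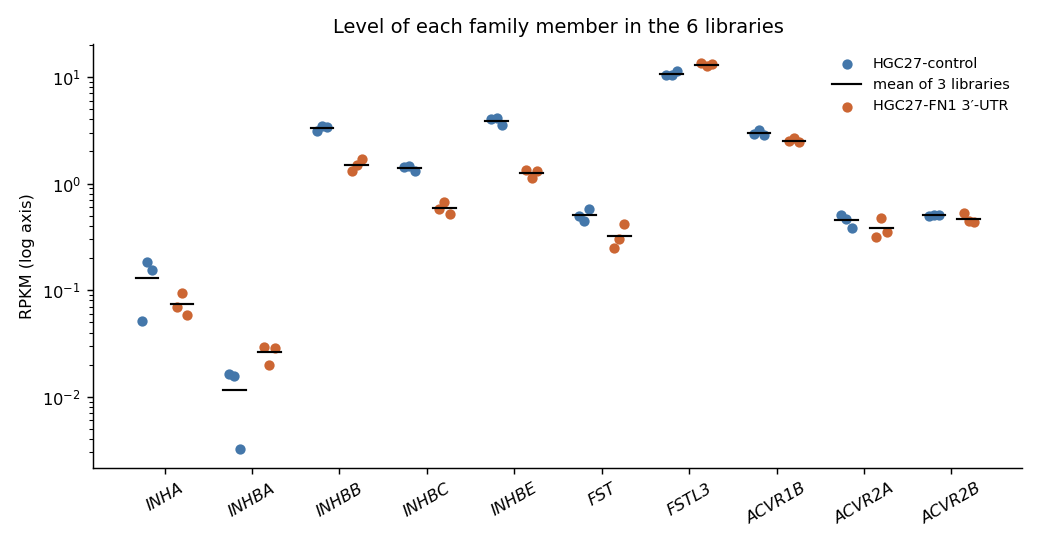
RPKM (log axis) of the 10 members, with 1 point per library, 3 HGC27-control (blue) and 3 HGC27-FN1 3′-UTR (orange), and a line at each mean. *INHBB*, *INHBC* and *INHBE* are lower in all 3 FN1 3′-UTR libraries than in any control library, while *FSTL3* is higher.

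*INHBE*, at chr12:57452323-57459280 on the plus strand with 3015 bases of merged exons, encodes the βE subunit. It read 1.338, 1.127 and 1.318 RPKM in the FN1 3′-UTR libraries 1 to 3, and 4.054, 4.090 and 3.555 RPKM in the control libraries. The recovered reads behind these values were 66, 83 and 116, and 273, 380 and 397. All 3 FN1 3′-UTR libraries lay below all 3 control libraries, and the means were 1.261 ± 0.116 and 3.900 ± 0.299 RPKM (SD, n = 3 each). The ratio of the control mean to the FN1 3′-UTR mean was 3.09, and the log2 fold change was -1.56 (SE 0.0926). None of the other tested members differed by as much. In bulk RNA, fewer cells that make a transcript and less transcript per cell cannot be told apart, here or for the genes below.

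*INHBB*, at chr2:120346143-120351808, encodes the βB subunit. Its RPKM was 1.317, 1.482 and 1.689 in the FN1 3′-UTR libraries and 3.144, 3.494 and 3.371 in the control libraries, from 69, 116 and 158 and from 225, 345 and 400 reads. The groups did not overlap. The mean was 1.496 ± 0.186 RPKM against 3.336 ± 0.177 RPKM (SD, n = 3 each), a ratio of 2.23 in favour of the control and a log2 fold change of -1.11 (SE 0.0988).

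*INHBC*, at chr12:57434760-57450828, encodes the βC subunit and ends 1494 bases before *INHBE* starts, on the same strand. It read 0.583, 0.678 and 0.516 RPKM in the FN1 3′-UTR libraries and 1.439, 1.466 and 1.301 RPKM in the control libraries, from 19, 33 and 30 and from 64, 90 and 96 reads. Again all FN1 3′-UTR libraries were below all control libraries. The mean was 0.592 ± 0.0817 RPKM against 1.402 ± 0.0883 RPKM, and the log2 fold change was -1.12 (SE 0.118). With a pseudocount of 1 it was -0.59.

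*INHBA*, which encodes the βA subunit, was close to the limit of detection in both groups, on chr7:41667168-41705834. It held 4, 4 and 7 reads in the FN1 3′-UTR libraries and 3, 4 and 1 in the control libraries, which is 0.029, 0.020 and 0.029 RPKM and 0.016, 0.016 and 0.003 RPKM. Every FN1 3′-UTR library was above every control library, at counts too low for a comparison. Pooled over each group, 15 and 8 reads gave 0.214 and 0.0887 reads per 1000000, with exact 95% Poisson intervals of 0.12 to 0.354 and 0.0383 to 0.175. The intervals cover counting error only and overlap. *INHA*, the α subunit of the inhibins, held 2, 4 and 3 reads and 2, 10 and 10 reads. Its pooled 9 and 22 reads gave 0.129 (interval 0.0588 to 0.244) and 0.244 (interval 0.153 to 0.369) reads per 1000000. *INHA* overlaps *OBSL1* in position on the opposite strand, and whether their exons overlap was not checked. Whether reads were counted by strand is not given in the sources used here, so some *INHA* reads could belong to *OBSL1*. No fold is given for *INHBA* and *INHA*.

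The 4 β subunits summed to 3.27, 3.31 and 3.55 RPKM in the FN1 3′-UTR libraries and 8.65, 9.07 and 8.23 RPKM in the control libraries. *INHBE* made up 45.1% ± 1.8 of that sum in the control group and 37.4% ± 3.4 in the FN1 3′-UTR group, *INHBB* 38.6% ± 2.3 and 44.2% ± 3.7, and *INHBC* 16.2% ± 0.41 and 17.6% ± 3.0 (SD, n = 3 each). *INHBA* stayed under 1% in every library, at 0.0395% to 0.901%. The ranges of the *INHBE* share did not overlap between the groups, at 43.2% to 46.9% and 34.1% to 41.0%. The ratio of *INHBE* to *INHBC* RPKM was 2.78 ± 0.044 in the control group and 2.17 ± 0.46 in the FN1 3′-UTR group, with FN1 3′-UTR library 2 lowest at 1.66. The sum, the shares and this ratio restate the differences given for the single members, and are no further evidence.

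**Figure D2:**
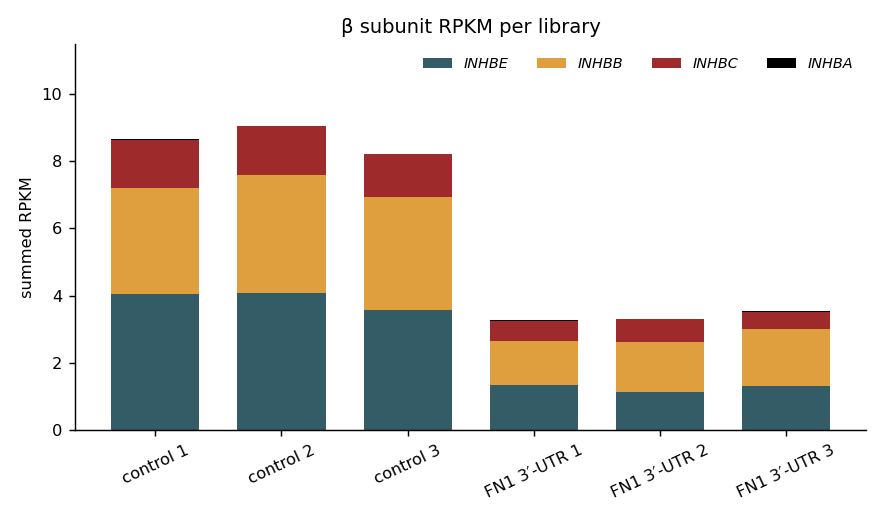
Stacked RPKM of the β subunits in each of the 6 libraries, with no error bars since each bar is 1 library. The sum is 8.23 to 9.07 RPKM in the control libraries and 3.27 to 3.55 RPKM in the FN1 3′-UTR libraries, and *INHBA* is too low to see in most bars.

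*FSTL3*, at chr19:676365-683399, was the highest member in both groups. It read 13.44, 12.55 and 13.13 RPKM in the FN1 3′-UTR libraries and 10.32, 10.37 and 11.44 RPKM in the control libraries, from 674 to 1176 and from 707 to 1300 reads. The groups did not overlap, though the gap between the lowest FN1 3′-UTR and the highest control library was small. The mean was 13.04 ± 0.45 RPKM against 10.71 ± 0.635 RPKM, a ratio of 1.22 and a log2 fold change of 0.28 (SE 0.0525). Its call was lost without FN1 3′-UTR library 1 or 3 or control library 1 or 2, and under the replicate block, while the log2 fold change stayed at 0.26 to 0.33 over the libraries left out.

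*FST*, at chr5:53480409-53487134, was far lower, at 0.247, 0.303 and 0.415 RPKM in the FN1 3′-UTR libraries and 0.498, 0.448 and 0.573 RPKM in the control libraries. The reads were 12, 22 and 36, and 33, 41 and 63. The groups did not overlap, the log2 fold change was -0.54 (SE 0.19), and it was not called. The ratio of *FSTL3* to *FST* RPKM was 42.5 ± 11 in the FN1 3′-UTR group and 21.3 ± 1.7 in the control group. The ratio of *FSTL3* to the summed β subunits was 3.87 ± 0.22 against 1.24 ± 0.13 (SD, n = 3 each), and it was higher in every FN1 3′-UTR library, at 3.70 to 4.11, than in any control library, at 1.14 to 1.39. Both ratios restate the differences given for the single members, whose groups were already apart, and are no further evidence.

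*ACVR1B*, the type I receptor, at chr12:51951667-51997078, read 2.493, 2.662 and 2.431 RPKM in the FN1 3′-UTR libraries and 2.943, 3.205 and 2.838 RPKM in the control libraries. The groups did not overlap. The means were 2.529 ± 0.12 and 2.995 ± 0.189 RPKM, and the log2 fold change of -0.24 (SE 0.0684) was not called. Voom on the recovered reads did call it, at a log2 fold change of -0.24. The 3 seed matches printed above lie in its 3′-UTR.

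The type II receptors stood lower and overlapped between the groups. *ACVR2A* read 0.316, 0.472 and 0.349 RPKM in the FN1 3′-UTR libraries and 0.509, 0.470 and 0.387 RPKM in the control libraries, with a log2 fold change of -0.22 (SE 0.178). *ACVR2B* read 0.524, 0.447 and 0.435 RPKM and 0.492, 0.505 and 0.508 RPKM, with a log2 fold change of -0.08 (SE 0.123). Neither was called. *ACVR2A* lies opposite *ORC4* and *AC009480.3*, and *ACVR2B* opposite *ACVR2B-AS1*, so some of their reads could come from those genes. The ratio of *ACVR1B* to the summed type II receptors was 2.99 ± 0.10 and 3.13 ± 0.18 in the FN1 3′-UTR and the control group.

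In the control group the order of mean RPKM was *FSTL3*, *INHBE*, *INHBB*, *ACVR1B*, *INHBC*, *FST*, *ACVR2B*, *ACVR2A*, *INHA* and *INHBA*. The ranges of *INHBB* and *ACVR1B* overlapped, as did those of *FST*, *ACVR2B* and *ACVR2A*. In the FN1 3′-UTR group *ACVR1B* was second, followed by *INHBB*, *INHBE* and *INHBC*. *INHBB* and *INHBE* overlapped there, and so did each neighbouring pair from *INHBC* through *ACVR2B* and *ACVR2A* to *FST*.

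**Figure D3:**
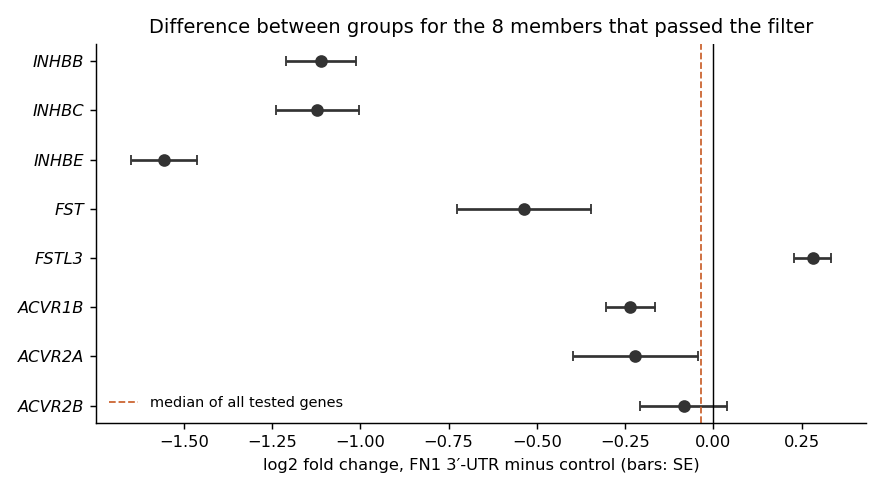
Log2 fold change (points) and SE (bars) of the 8 members that passed the filter, with the median of all tested genes as a dashed line. The 3 β subunits lie at -1.56 to -1.11 and *FSTL3* at 0.28. *ACVR2B* lies near the line at -0.08, while *ACVR2A* lies at -0.22 and *ACVR1B* at -0.24.

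Other genes of the pathway were taken from 6 lists of 48 genes, of which 38 were tested. Of these 8 were called higher and 4 lower, beside 5.62% and 7.36% of all tested genes. Their median log2 fold change was -0.015, beside -0.04 over all tested genes. *CFC1* and *GDF3* were not analysed here. Among the receptors and co-receptors, 1 of 6 rose and 1 fell. *BAMBI*, a pseudoreceptor that blocks type I receptors, rose by 0.53 on the log2 scale (SE 0.0423, adjusted p = 0.0017 from limma), from 8.452 ± 0.392 to 12.25 ± 0.132 RPKM. *TGFBR3L*, an inhibin B co-receptor, had a log2 fold change of -0.68 (adjusted p = 0.0471), and lost its call under every library left out. It held 5, 8 and 8 reads in the FN1 3′-UTR libraries and 15, 18 and 18 in the control libraries. Its call was also lost with voom on the recovered reads, with median-ratio scaling and with no filter on low values. *ACVR1* (0.14), *BMPR2* (-0.04) and the inhibin co-receptor *TGFBR3* (-0.33) were not called, and *ACVR1C* did not pass the filter.

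Of 4 related ligands tested, *GDF11*, which shares ACVR2A and ACVR2B with the activins, fell by 0.24 on the log2 scale (adjusted p = 0.00936, limma), and the other 3 were not called. *FSTL1*, 1 of the 2 follistatin-domain genes tested beside *FST* and *FSTL3*, rose by 0.63 on the log2 scale (adjusted p = 0.000517), from 15.32 ± 0.47 to 23.70 ± 0.417 RPKM. None of the 4 proprotein convertases, the enzymes that cut such precursors, was called, with *FURIN* at -0.14. *PCSK7* stood at 0.22, and voom on the recovered reads did call it higher.

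Of 15 SMADs and regulators, 3 rose and 2 fell. The inhibitory *SMAD7* rose by 0.39 and *SMAD6* by 0.31 on the log2 scale, and the corepressor *TGIF1* rose by 0.32 (adjusted p = 0.00947, 0.0178 and 0.022, limma). The ubiquitin ligase *SMURF2* fell by 0.42 on the log2 scale (adjusted p = 0.00422), and *FOXH1*, a DNA-binding partner of SMAD2, fell by 0.36 (adjusted p = 0.0214). *SMAD2* (-0.01), *SMAD3* (0.20) and *SMAD4* (-0.07) were not called. Voom on the recovered reads did call *SMAD3* higher, at a log2 fold change of 0.19 (adjusted p = 0.027). Of 7 SMAD2/3 target genes, 3 rose, beside 5.62% of all tested genes, and 0 fell by limma, 0 being lower also at an unadjusted p under 0.05 and with voom. The median log2 fold change of these targets was 0.45. *TAGLN* rose by 1.48 and *CTGF* by 1.34 on the log2 scale, and *GADD45B* by 0.45 (adjusted p = 0.0013, 0.00188 and 0.0257, limma). With a library left out, the pathway lists held 5 to 7 genes called higher and 2 called lower, and under the replicate block 4 and 2. *FOXH1*, *TGFBR3L* and *TGIF1* lost their call in each of these fits. *SMAD6* lost it under the block and without FN1 3′-UTR library 1 or 3 or control library 1 or 2, *GADD45B* under the block and without FN1 3′-UTR library 1 or 2 or control library 1 or 2, and *SMAD7* under the block.

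Since *INHBE* is known as an ATF4 gene, 23 stress-response genes were counted beside it. Of these 18 were called lower and 1 higher, beside 7.36% and 5.62% of all tested genes. The median log2 fold change of the list was -0.61. *ATF4* fell by 0.67 and *DDIT3* by 0.61 on the log2 scale (adjusted p = 0.00019 and 0.00124, limma). *DDIT4* fell by 1.50, *NUPR1* by 1.27, *ASNS* by 1.25 and *ADM2* by 1.24 on the log2 scale (adjusted p = 9.9e-05, 0.000123, 6.6e-05 and 0.000539, limma). *PPP1R15A*, a phosphatase subunit that acts against the stress response, rose by 0.50 (adjusted p = 0.00329). The list was chosen with earlier results known, so it is no independent evidence of direction.

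**Figure D4:**
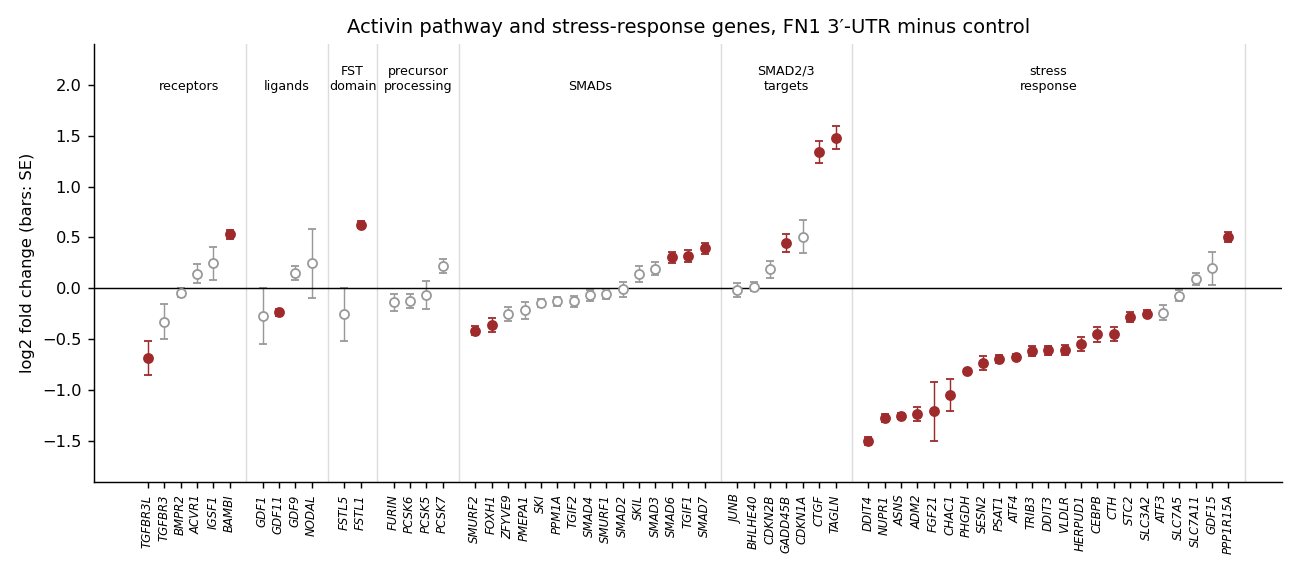
Log2 fold change (points) and SE (bars) of the tested genes of the 6 pathway lists and of the stress-response list, with filled red points for an adjusted p under 0.05 and open grey points otherwise. The pathway lists lie on both sides of 0, with *TAGLN* and *CTGF* highest, while 18 of the 23 stress-response genes are called lower.

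The genes whose pattern over the 6 libraries was most like that of a β subunit were found by the root mean square difference of log2(RPKM + 0.1) after centring each gene, among tested genes with a mean RPKM of at least 1. For *INHBE* they were *RP11-442H21.2* (0.124), *RIMS4* (0.129), *DDIT4* (0.132), *AKNA* (0.161) and *TMEM179* (0.163). For *INHBB* they were *IGFBP5* (0.063), *ISM2* (0.095), *TSC22D3* (0.096), *GPT2* (0.103) and *EPHB6* (0.108). For *INHBC* they were *SLC1A4* (0.070), *ADM2* (0.099), *GPT2* (0.126), *NUPR1* (0.127) and *EPHB6* (0.128). Between the β subunits themselves the difference was 0.267 for *INHBE* and *INHBB*, 0.273 for *INHBE* and *INHBC*, and 0.180 for *INHBB* and *INHBC*. *RP11-442H21.2* lies within *DDIT4* on the opposite strand, so reads of these rows may not be separate. *DDIT4*, *ADM2* and *NUPR1* are among the stress-response genes above. Each of these patterns is mostly the difference between the groups, so the search finds genes with a like log2 fold change. For example, *DDIT4* was at -1.50 and *INHBE* at -1.56. Shared regulation was not tested.

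*INHBC* and *INHBE* lie next to each other on chromosome 12, so the 23 tested genes within 250000 bases of the pair were compared. Of these 12 were called lower, beside 7.36% of all tested genes, and 0 higher by limma, 0 being higher also at an unadjusted p under 0.05 and with voom. Their median log2 fold change was -0.36, beside -0.04 over all tested genes. The largest called decrease was that of *NDUFA4L2*, by 0.94 on the log2 scale (SE 0.103, adjusted p = 0.00458), from 2.878 ± 0.331 to 1.450 ± 0.107 RPKM, which is smaller than those of *INHBC* and *INHBE*. *DDIT3*, also a stress-response gene, fell by 0.61, *SLC26A10* by 0.57 and *B4GALNT1* by 0.46 on the log2 scale (adjusted p = 0.00124, 0.00733 and 0.00808, limma). *SLC26A10* and *B4GALNT1* overlap in position, as do some other neighbours, so reads of such rows may not be separate. *GLI1*, 854 bases from the pair on the *INHBE* side, had a log2 fold change of -0.14 and was not called. On the *INHBC* side *R3HDM2*, 3754 bases from the pair, fell by 0.41 on the log2 scale (adjusted p = 0.00661, limma). Without FN1 3′-UTR library 1 the count called lower was 7, and without each other library it was 8 to 11. Under the replicate block it was 8, with median-ratio scaling 10, and with voom on the recovered reads 14.

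**Figure D5:**
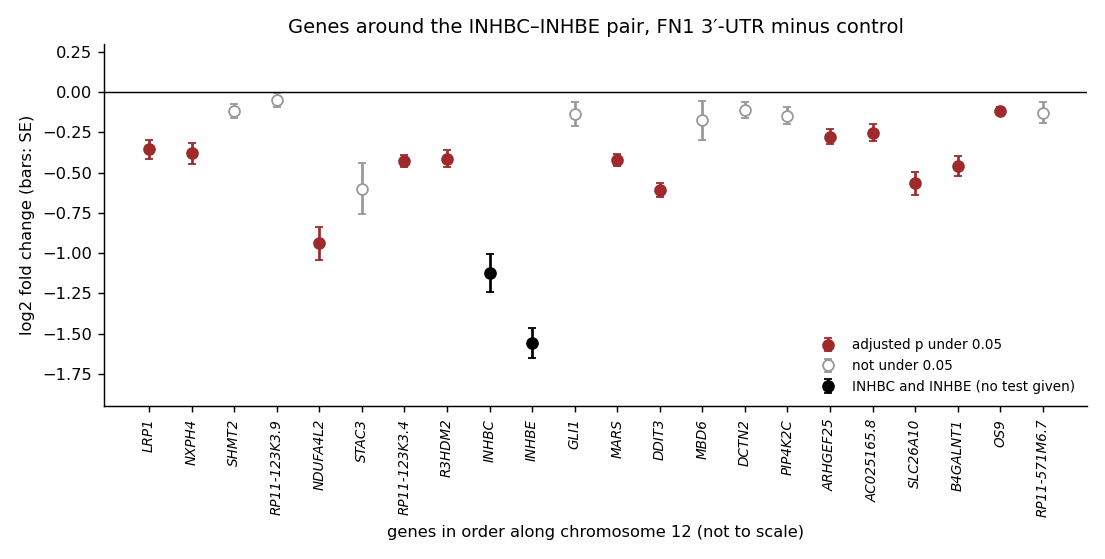
Log2 fold change (points) and SE (bars) of the tested genes around *INHBC* and *INHBE* in their order along chromosome 12, not to scale, leaving out 3 with an SE over 0.5. *INHBC* at -1.12 and *INHBE* at -1.56 are the lowest points, *NDUFA4L2* follows at -0.94, and the other neighbours lie between -0.61 and -0.05.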

How the data were processed

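RNA-seq of 3 HGC27-FN1 3′-UTR and 3 HGC27-control libraries was used, and groups came from the sample titles. The deposited values are RPKM per gene, 1 file per library, scaled by the authors to 1000000 reads assigned to genes. A strand-specific kit was used, and the submitters' processing notes name Trimmomatic 0.36, STAR 2.5.3a, featureCounts and Subread 1.5.1, with build GRCh38. The annotation release is not given in the sources used here. Reads were recovered as whole multiples of 1 read (100% of values above 0 within 0.1 read), giving 16357085 to 37037532 per library. limma 3.58.1 in R 4.3.3 was fitted to log2(RPKM + 0.1) with group as the only term and a trend in the prior variance, and p-values were Benjamini-Hochberg adjusted over 23299 genes. An exact permutation test of 3 against 3 libraries cannot go below 0.1.

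The members, the gene lists and the named-gene rule were chosen with earlier results of these data known. Named genes were the members, up to 4 called genes per list and direction, fixed pathway genes (*ACVR1*, *ACVR1C*, *BMPR2*, *TGFBR3*, *SMAD2*, *SMAD3*, *SMAD4*, *FURIN*, *ATF4*, *DDIT3* and *FN1*) and 5 genes most like each of *INHBE*, *INHBB* and *INHBC*. *GLI1*, *R3HDM2*, *PCSK7* and the marker genes were named outside this rule. Rows with a name turned into a date or a repeated name (28 rows) were left out of the likeness search. Some genes of the lists are not reported here and were left out of the list counts. The fit was tested on simulated reads. Alternatives were the replicate block, pseudocounts of 0.01 and 1, no filter, a minimum RPKM of 1, median-ratio scaling, voom on recovered reads and each library left out.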

Additional observations from a re-analysis of the deposited data

How the results depend on the processing

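Under the replicate block, calls over all genes came to 564 higher and 598 lower. The pathway lists held 4 higher and 2 lower, the neighbours 8 lower, and 0 members were called higher. The 3 members called lower did not change in number. Deviations of same-numbered libraries correlated at 0.0024, 0.021 and 0.010, so the numbers were not taken as pairs. Voom on the recovered reads called 2043 higher and 3065 lower. At a pseudocount of 1, the log2 fold change was -0.80 for *INHBB*, -0.59 for *INHBC* and -1.115 for *INHBE*, since it weighs more at low RPKM. With each library left out, all genes called higher ranged from 501 to 927 and lower from 470 to 1015, pathway genes higher from 5 to 7 and lower from 2 to 2, neighbours lower from 7 to 11, and members higher from 0 to 1. Each such fit has fewer samples. Among the members and the named genes, no called value changed direction under these alternatives; other genes were not followed. The reads of *INHA* and *INHBA* limit what can be said of them.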
